A study of Mus musculus with 6 samples.

Results

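The genes described here carry newly made proteins into the endoplasmic reticulum (ER), cut and glycosylate them there, and move them on to the Golgi and back. They were taken by name from a list chosen with earlier results of these data known. Shares set beside all genes are therefore description only. Of 48 listed genes, 47 were found by gene name among the 24797 genes of the count table. Srpra was not found by that name; the table lists a gene Srpr, for which RefSeq (GRCm38.p6) gives Srpra as a synonym, and its values are given apart. The study sequenced polyadenylated RNA of 6 colonic tumors, 3 from GRdim mice, whose glucocorticoid receptor is deficient in dimerization, and 3 from GRwt mice with the wildtype receptor. Both genotypes received AOM/DSS, that is azoxymethane, a chemical carcinogen, with dextran sulfate sodium, which injures the colon lining. The comparison asks how tumor transcripts differ with the receptor's capacity to dimerize. Age, strain background, sex and pooling of tumors are not given in the labels, nor whether tumors of a genotype came from separate mice, so any p-value here reflects how these 6 samples vary, which may be technical.

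A protein bound for secretion is recognised at its signal peptide by the signal recognition particle (SRP), brought to the SRP receptor and threaded through the Sec61 channel. Signal peptidase removes the signal peptide and the oligosaccharyltransferase (OST) attaches the first sugars to asparagines. Folded cargo then leaves in COPII-coated vesicles with the help of cargo receptors, and COPI-coated vesicles with KDEL receptors bring escaped ER residents back. In the colon this route is used most by cells that secrete heavily, such as mucus-making goblet cells and antibody-making plasma cells.

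Libraries held 21132981 to 36222351 counts, and every one of the 47 genes passed the filter on low counts, with at least 365 counts in each library (exact 95% interval 329 to 404, for counting error only). GRdim replicate 1 and GRwt replicate 3 have a T in their library names, whose meaning the labels do not give, and they were the most alike of all pairs of libraries (Pearson r of log2 CPM across genes 0.984), so results are also given with and without them. GRdim replicates 1 and 3 carry the same number in their library names and may share an animal. Levels are given as CPM, that is counts scaled to the size of each library, and log2 fold changes are GRdim minus GRwt with their standard error.

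The genes of ER entry, glycosylation and export were slightly lower in GRdim tumors nearly throughout, but no single gene passed the test. Their summed level was 7173, 6847 and 6900.1 CPM in GRdim replicates 1, 2 and 3, against 8408, 8522 and 7521 CPM in GRwt replicates 1, 2 and 3. Each GRdim sum was below each GRwt sum, and the GRdim mean of 6974 ± 175 CPM was 14.4% lower than the GRwt mean of 8150.2 ± 548 CPM (mean ± SD, n = 3 per group). Of the 47 genes, 45 had a log2 fold change below 0, against 49.4% of the 18756 genes tested. Their log2 fold changes had a median of -0.22 and a range of -0.44 to 0.068, beside a median of 0.0040 over all genes tested. With edgeR, 0 of the 47 passed an adjusted p of 0.05, as did 0 of all genes tested (0%), each of the 47 having an adjusted p of 0.999944. At an unadjusted p under 0.05 there was 1 of 47, Rpn1, beside 1.09% of all genes called lower in that way, and DESeq2 gave 1 of 47 in that way, beside 1.5% of all genes. After adjustment DESeq2 called 0 of the 47, beside 0.176% of all genes. Every GRdim library lay below every GRwt library for 6 of the 47 (Rpn1, Rpn2, Stt3a, Spcs2, Ssr1 and Ssr3), or 12.8%, beside 3.59% of all genes tested. The opposite, every GRdim library above every GRwt library, held for 0 of the 47, beside 2.98% of all genes tested. In bulk tumor, fewer cells of a type and less RNA per cell cannot be told apart.

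**Figure D1:**
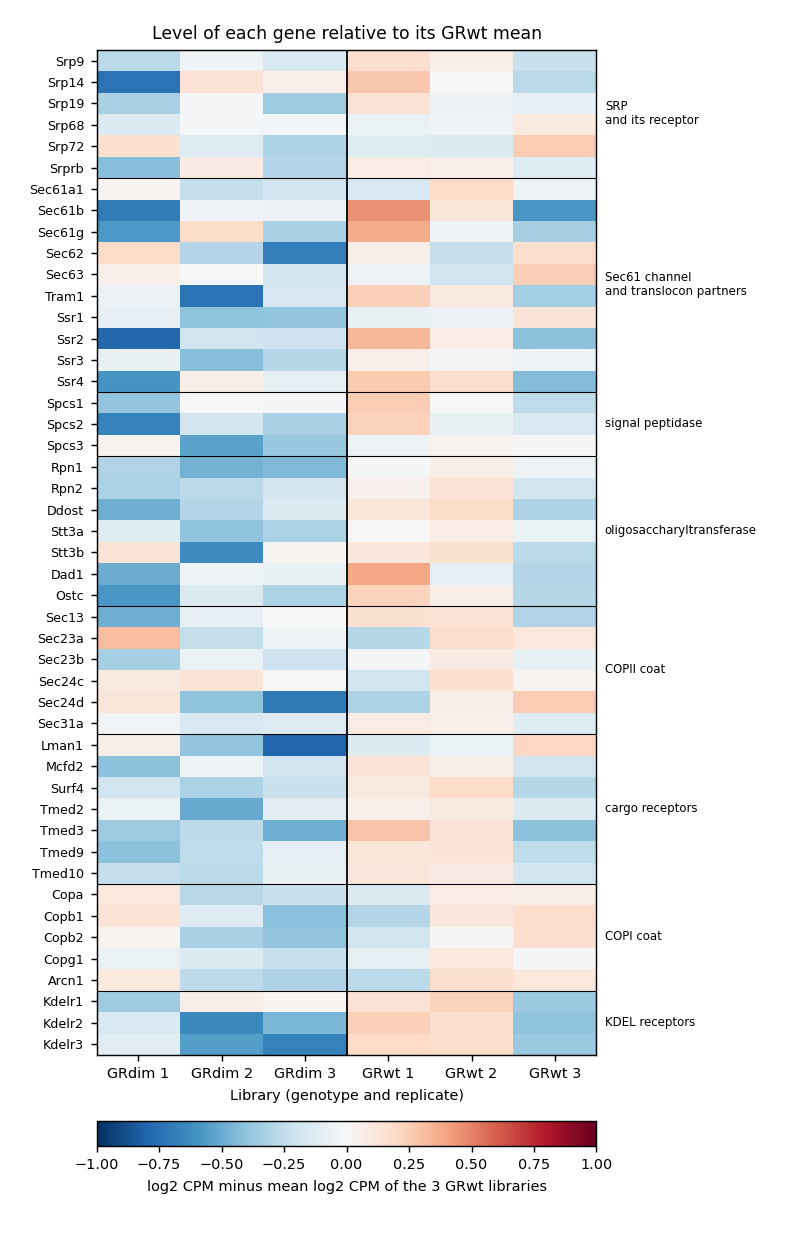
Level of each of the 47 genes (rows, grouped by role) in each library (columns, GRdim replicates to the left of GRwt), as log2 CPM minus the mean log2 CPM of the 3 GRwt libraries. Blue, lower than the GRwt mean, prevails in the GRdim columns, and GRwt replicate 3 also holds much blue, with 33 of 47 genes below the GRwt mean.

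Taken over the 47 genes, each GRdim library lay below each GRwt library, but the gap was narrow. Measured as the median deviation of the 47 genes from their GRwt means, GRdim replicates 1, 2 and 3 lay at -0.15, -0.23 and -0.21 on the log2 scale, and GRwt replicates 1, 2 and 3 at 0.077, 0.071 and -0.14. GRwt replicate 3 thus lay within 0.01 of GRdim replicate 1, the other library with a T in its name, while both other GRwt libraries lay above 0. The lowest level was in a GRdim library for 43 of the 47 genes, 18 in replicate 1, 14 in replicate 2 and 11 in replicate 3. The highest was in a GRwt library for 43, 20 of them in replicate 1, 15 in replicate 2 and 8 in replicate 3. Neither count was taken over all genes tested, so no share stands beside them.

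**Figure D2:**
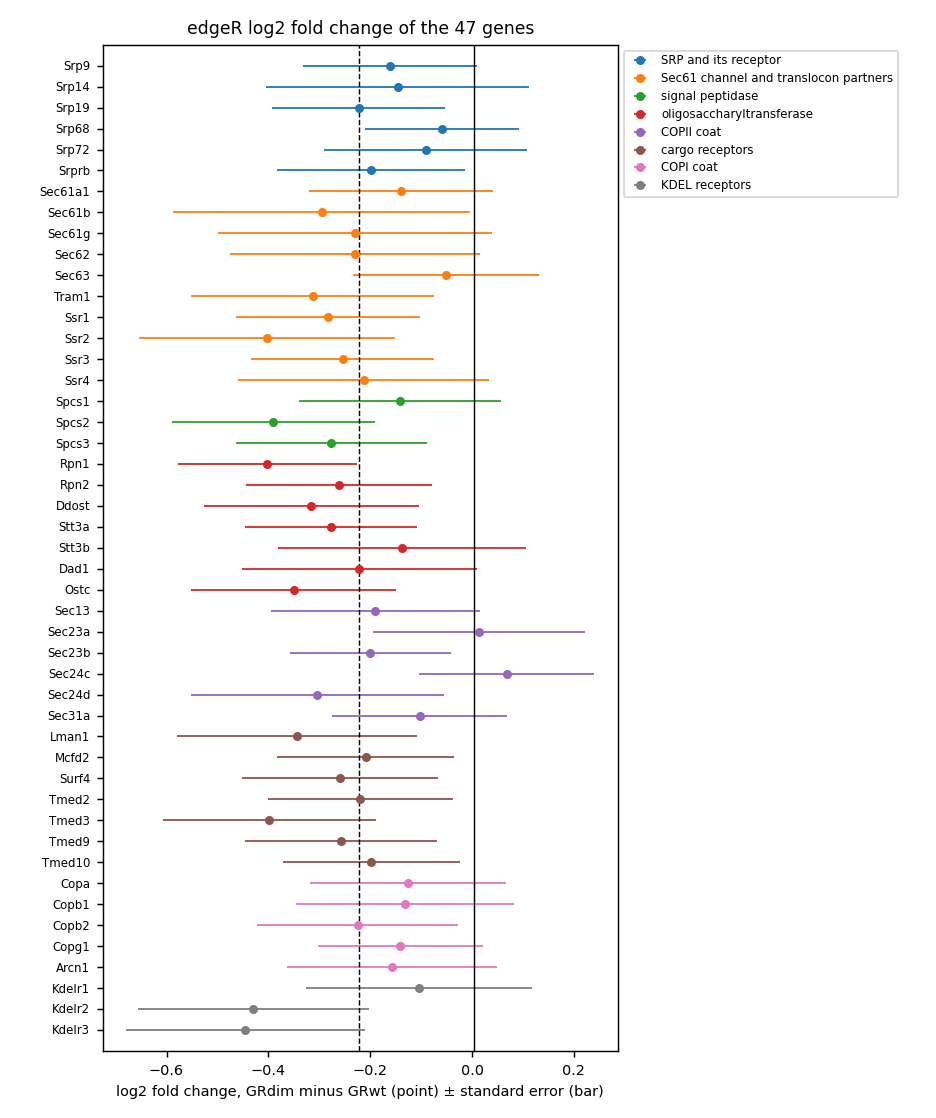
edgeR log2 fold change of each of the 47 genes (GRdim minus GRwt, point) with its standard error (bar), coloured by role; the solid line marks the median of all genes tested (0.0040) and the dashed line that of the 47 genes (-0.22). Sec23a and Sec24c alone lie above 0, and most bars of the signal peptidase, OST, cargo receptor and KDEL receptor genes end below it. For 21 of the 47 genes the log2 fold change was smaller in size than its standard error.

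The SRP genes differed little between genotypes. SRP is an RNA-protein particle, and the 6 genes found by name had a median log2 fold change of -0.15 (-0.22 to -0.059), all below 0. Srp19, which helps to assemble the particle, had 54.9, 68.3 and 53.7 CPM in GRdim replicates 1, 2 and 3 and 75.7, 65.9 and 64.9 CPM in GRwt replicates 1, 2 and 3. The genotypes overlapped through GRdim replicate 2, and the log2 fold change was -0.22 with a standard error of 0.17. Srp72, which binds the SRP RNA together with Srp68, had 165, 135 and 119.8 CPM in GRdim and 136, 135 and 177 CPM in GRwt libraries, high in the library with a T in each genotype, and a log2 fold change of -0.091 ± 0.20 (standard error). Srp9 and Srp14, which form the Alu domain that slows translation, had -0.16 ± 0.17 and -0.15 ± 0.26. Srp68, the partner of Srp72, lay nearest to 0 at -0.059 ± 0.15. Srprb, the membrane-anchored receptor subunit, had -0.20 ± 0.18. The gene listed as Srpr, the other receptor subunit, had 136, 129.8 and 121 CPM in GRdim and 139.8, 159 and 149 CPM in GRwt libraries, each GRdim value below each GRwt value, and a log2 fold change of -0.21 ± 0.16. The SRP median was -0.26 without GRdim replicate 2 and -0.28 without GRwt replicate 3, and closer to 0 without GRdim replicate 1 (-0.10).

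At the channel itself all 10 genes were below 0, with a median of -0.24. The TRAP complex sits beside Sec61 and helps weak signal peptides to enter. Ssr2, a TRAP subunit with the most negative log2 fold change of the 10 (chromosome 3, 88483183 to 88495726, GRCm39), had 123, 185 and 184 CPM in GRdim replicates 1, 2 and 3 and 268, 224 and 160.1 CPM in GRwt replicates 1, 2 and 3. GRwt replicate 3 lay within the GRdim range, and the log2 fold change was -0.40 ± 0.25. Ssr3, the TRAP gene with the highest CPM, had 302, 236 and 259 CPM in GRdim and 328, 315 and 308 CPM in GRwt libraries, without overlap (-0.25 ± 0.18). Ssr1 did not overlap either, at 221, 177 and 179 CPM in GRdim and 222, 224 and 255 CPM in GRwt libraries (-0.28 ± 0.18), and Ssr4 overlapped (-0.21 ± 0.25). The pore-forming Sec61a1 had -0.14 ± 0.18, and the small subunits Sec61b and Sec61g -0.30 ± 0.29 and -0.23 ± 0.27. Tram1, which contacts entering chains, had -0.31 ± 0.24. Sec62 and Sec63, which serve entry after translation, had -0.23 ± 0.25 and -0.051 ± 0.18, so Sec63 lay nearest to 0 of the 10.

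Signal peptidase subunits lay at a median of -0.28. Spcs2 (chromosome 7, 99486776 to 99512669, GRCm39) had 102, 144 and 131 CPM in GRdim replicates 1, 2 and 3 and 192, 155 and 147 CPM in GRwt replicates 1, 2 and 3. All GRdim values were below all GRwt values, the highest GRdim and the lowest GRwt value being close, and the log2 fold change was -0.39 ± 0.20 (edgeR unadjusted p = 0.0832). Spcs3 had 116, 79.02 and 87.8 CPM in GRdim and 110.5, 117 and 115 CPM in GRwt libraries, with GRdim replicate 1 inside the GRwt range (-0.28 ± 0.19). Spcs1 had -0.14 ± 0.20; it overlaps Glt8d1 on the opposite strand, which held 24.9% as many counts, and although the library kit keeps strand, the strand setting of the counting is not given, so reads of the pair may be mixed.

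OST genes were lower in all 7 cases, with a median of -0.28, and held 3 of the 6 genes without overlap. Rpn1, ribophorin I, a large OST subunit that brings some membrane proteins to the enzyme (chromosome 6, 88061464 to 88082286, GRCm39), had 351, 312 and 319 CPM in GRdim replicates 1, 2 and 3 and 428, 453 and 417 CPM in GRwt replicates 1, 2 and 3. The gap between the genotypes was wider than the spread within either: GRdim tumors had 327 ± 20.4 CPM and GRwt tumors 433 ± 18.5 CPM (mean ± SD, n = 3 per group), 24.4% lower. Its log2 fold change was -0.40 ± 0.18, with an edgeR unadjusted p of 0.0494 and an adjusted p of 0.999944. Rpn2, ribophorin II, had 316, 328 and 347 CPM in GRdim and 406, 436 and 348 CPM in GRwt libraries, where the highest GRdim and the lowest GRwt value nearly met (-0.26 ± 0.18). Ostc, a subunit specific to the OST form that works during translocation, had 99.7, 135 and 119.6 CPM in GRdim and 174, 155 and 123 CPM in GRwt libraries, overlapping through GRwt replicate 3 (-0.35 ± 0.20). Ddost and Dad1, subunits shared by both OST forms, had -0.32 ± 0.21 and -0.22 ± 0.23.

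The catalytic OST subunits differed in spread. Stt3a, which acts as the chain enters, had 197, 162 and 172 CPM in GRdim and 214, 226 and 205 CPM in GRwt libraries, without overlap (-0.28 ± 0.17). Stt3b, which catches sites that were skipped, had 245, 144 and 228 CPM in GRdim and 244, 250.4 and 186 CPM in GRwt libraries; only GRdim replicate 2 lay below the GRwt range (-0.14 ± 0.24). Without that library the log2 fold change of Stt3b was 0.060.

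**Figure D3:**
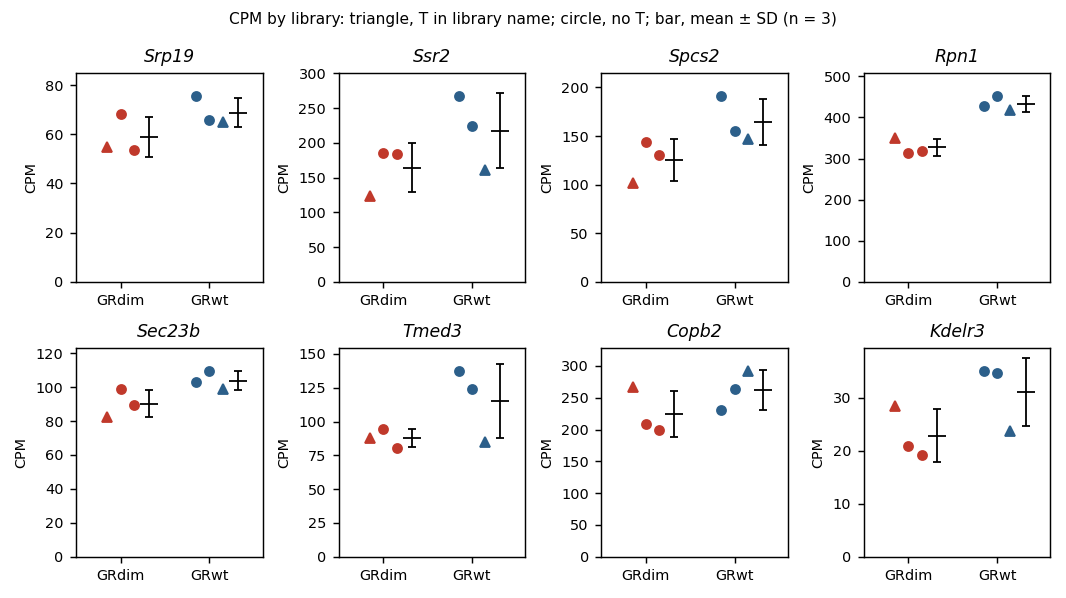
CPM in each library of the gene with the smallest p in each role (GRdim left, GRwt right; triangles, T in the library name; bars, mean ± SD, n = 3). Rpn1 and Spcs2 show no overlap between genotypes, whereas in Ssr2, Tmed3 and Kdelr3 the GRwt triangle lies among the GRdim points.

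Promoter sequence is shown for the coat and retrieval genes because 5 genes of this set share 1 exact element. Promoter windows of 300 bases, 250 before and 50 after the gene start, were in the RefSeq table (GRCm38.p6) for 36 of the 47 genes. The core of the unfolded protein response element, TGACGTGG, searched on both strands, was in the windows of Sec23a, Sec24d, Copb1, Copb2 and Kdelr3, 5 of 36 (13.9%), against 193 of 27025 genes with a window (0.714%). Its reverse complement, CCACGTCA, begins with the CCACG that ends both ER stress elements, and an exact match describes letters, not a bound site. The ER stress element (CCAAT, any 9 bases, CCACG) had no exact match in the 36 windows and was in 0.137% of all genes with one; ER stress element II (ATTGG, any 1 base, CCACG) had none either and was in 0.0444%. The 5 stretches run 5′ to 3′ on the gene's strand, from 60 bases before the match to the gene start or the end of the match, with the match in capitals.
Sec24d (chr3:123267410-123267495, plus strand): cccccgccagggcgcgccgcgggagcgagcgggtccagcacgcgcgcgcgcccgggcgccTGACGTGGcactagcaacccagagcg
Copb1 (chr7:114254681-114254768, minus strand): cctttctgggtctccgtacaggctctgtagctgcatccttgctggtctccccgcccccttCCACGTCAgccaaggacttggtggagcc
Copb2 (chr9:98563664-98563731, plus strand): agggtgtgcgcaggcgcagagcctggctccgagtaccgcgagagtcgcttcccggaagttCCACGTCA
Sec23a (chr12:59012004-59012071, minus strand): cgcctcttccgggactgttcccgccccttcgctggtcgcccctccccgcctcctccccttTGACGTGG
Kdelr3 (chr15:79516318-79516407, plus strand): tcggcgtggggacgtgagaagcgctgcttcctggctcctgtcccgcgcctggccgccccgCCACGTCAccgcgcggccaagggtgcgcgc
The match lies as TGACGTGG in Sec24d and Sec23a and as CCACGTCA in the other 3. The log2 fold changes of the 5 genes were -0.44 for Kdelr3, -0.30 for Sec24d, -0.22 for Copb2, -0.13 for Copb1 and 0.013 for Sec23a. No test compared these values with each other, and the sign of Sec23a turned under several other settings.

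COPII genes had a median of -0.15 and included the only 2 genes of the 47 above 0, Sec24c and Sec23a. Sec24c, a cargo-binding coat subunit, had 185, 191 and 175 CPM in GRdim replicates 1, 2 and 3 and 152, 195 and 178 CPM in GRwt replicates 1, 2 and 3. The GRdim range lay within the GRwt range (0.068 ± 0.17), and the sign turned without GRwt replicate 1 (-0.025). Sec24d, its relative, had 74.1, 51.4 and 41.6 CPM in GRdim and 54.9, 70.7 and 80.8 CPM in GRwt libraries, highest within each genotype in the library with a T (-0.30 ± 0.25). Sec23b, which drives the coat's GTPase cycle, had 82.6, 98.8 and 89.6 CPM in GRdim and 103, 109.8 and 98.6 CPM in GRwt libraries, with GRdim replicate 2 just above the lowest GRwt value (-0.20 ± 0.16). Its relative Sec23a had 66.8, 45.6 and 52.3 CPM in GRdim and 44.1, 60.9 and 58.1 CPM in GRwt libraries, a log2 fold change of 0.013 ± 0.21 whose sign turned under several other settings, for example -0.16 without GRdim replicate 1. Sec31a, of the outer cage, had 294, 269 and 274 CPM in GRdim and 315, 310.2 and 275 CPM in GRwt libraries (-0.10 ± 0.17), and Sec13, its partner in the cage, -0.19 ± 0.20.

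All 7 cargo receptors, which pick proteins for COPII vesicles, lay below 0, at a median of -0.26. Tmed3, a p24 family receptor (chromosome 9, 89581259 to 89587121, GRCm39), had 87.8, 94.2 and 80.7 CPM in GRdim replicates 1, 2 and 3 and 138, 124 and 84.99 CPM in GRwt replicates 1, 2 and 3. GRwt replicates 1 and 2 stood well above every GRdim library and GRwt replicate 3 stood among them (-0.40 ± 0.21, edgeR unadjusted p = 0.0913). Surf4, a receptor for many soluble secreted proteins, showed the same layout, at 257, 236 and 251 CPM in GRdim and 315, 334 and 241 CPM in GRwt libraries (-0.26 ± 0.19); it overlaps Surf2 on the opposite strand, which held 11.5% as many counts. Lman1 and Mcfd2, which together carry clotting factors in humans, had -0.34 ± 0.24 and -0.21 ± 0.17. The remaining p24 genes Tmed2, Tmed9 and Tmed10 had -0.22, -0.26 and -0.20.

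COPI genes, which build the coat for the return path, had a median of -0.14 and the narrowest range of the 8 roles, -0.22 to -0.13. Copb2 had 266, 209 and 199 CPM in GRdim replicates 1, 2 and 3 and 231, 264 and 293 CPM in GRwt replicates 1, 2 and 3. GRdim replicate 1 stood second only to GRwt replicate 3 among the 6 libraries (-0.22 ± 0.20). Copa, the COPI gene with the highest CPM, had 364, 279.8 and 291 CPM in GRdim and 308, 357 and 356 CPM in GRwt libraries (-0.13 ± 0.19); the opposite-strand gene Ncstn overlaps it and held 55.4% as many counts. Copb1, Copg1 and Arcn1 had -0.13, -0.14 and -0.16. The COPI median was -0.28 without GRdim replicate 1 and -0.27 without GRwt replicate 1, against -0.087 without GRdim replicate 3 and -0.089 without GRwt replicate 2.

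KDEL receptors catch ER proteins that carry a KDEL-type tail, and 2 of the 3 had the most negative log2 fold changes of the 47 genes. Kdelr3 (chromosome 15, 79400612 to 79411940, GRCm39) had 28.5, 20.9 and 19.2 CPM in GRdim replicates 1, 2 and 3 and 35.1, 34.6 and 23.7 CPM in GRwt replicates 1, 2 and 3. The libraries with a T overlapped, GRdim replicate 1 being above GRwt replicate 3, and the others did not (-0.44 ± 0.23, edgeR unadjusted p = 0.0916). Kdelr3 overlaps Ddx17 on the opposite strand, a gene with 80994 counts over the 6 libraries against 4741 for Kdelr3, so its reads are uncertain. Kdelr2 had the same layout with no such overlap in the table, at 158, 113 and 128 CPM in GRdim and 208, 196 and 133 CPM in GRwt libraries (-0.43 ± 0.23). Among the 4 libraries with no T, Kdelr3 and Kdelr2 had differences in mean log2 CPM of -0.80 and -0.75, while between the 2 libraries with a T they had 0.27 and 0.25. Kdelr1 had 178, 237 and 230.3 CPM in GRdim and 251, 266 and 176 CPM in GRwt libraries, overlapping fully (-0.10 ± 0.22), and turned to 0.012 without GRdim replicate 1 and 0.0071 without GRwt replicate 2.

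Ratios between related genes within a library do not depend on library scaling, and 5 pairs were compared. The log2 ratio of Sec24c to Sec24d was 1.32, 1.89 and 2.07 in GRdim libraries against 1.47, 1.47 and 1.14 in GRwt libraries, a difference of 0.40 (exact two-sided permutation test, p = 0.3, Benjamini-Hochberg adjusted p = 0.6 over 5 pairs). Within each genotype the ratio was lowest in the library with a T. Kdelr2 and Kdelr3 relative to Kdelr1 differed by -0.32 and -0.35 (exact p = 0.4 each). Within GRwt the Kdelr3 ratio kept to -2.89 ± 0.053 (SD, n = 3), and in GRdim it spread to -3.24 ± 0.52, so the GRdim spread exceeded the difference. Sec23a relative to Sec23b differed by 0.21 (exact p = 0.5) and Stt3a relative to Stt3b by -0.12 (exact p = 0.6). No pair passed, each adjusted p being 0.6, and 3 samples against 3 cannot give a p below 0.1.

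The 47 genes had high levels in these tumors: by mean CPM their median stood at percentile 93.0 of the genes tested. They lie on 18 chromosomes. Levels between genes are compared per kilobase of transcript (RPKM, on the length of the principal GENCODE M21 transcript, whose isoform may not be the one used in these tumors). On that scale Sec61b was highest, at 211 ± 50.1 RPKM in GRdim and 259 ± 87.9 RPKM in GRwt tumors (mean ± SD, n = 3 per group), and Ssr4 followed at 169 ± 37.5 RPKM in GRdim and 196 ± 47.1 RPKM in GRwt tumors, within that spread. Among OST genes Ddost led at 151 ± 18.4 RPKM in GRdim and 188 ± 33.3 RPKM in GRwt tumors, while the catalytic Stt3a had 30.2 ± 3.11 RPKM in GRdim and 36.6 ± 1.75 RPKM in GRwt tumors. Sec23a, at 13.4 ± 2.64 RPKM in GRdim and 13.2 ± 2.19 RPKM in GRwt tumors, was among the lowest of the 47.

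The libraries with a T in their names differed from the others with transcript length. Across the 47 genes the T difference, log2 CPM in T libraries minus the others averaged over genotypes, had a Spearman rho of 0.766 with transcript length (a description across genes of the same libraries), against 0.408 across 18306 genes with a known length. Within a genotype the rho of the 47 was 0.634 in GRdim, from the difference of replicate 1 to the others, and 0.723 in GRwt, from that of replicate 3. All 13 of the 47 genes with transcripts under 1500 bases, a limit set after seeing the values, were lower in T libraries. Their median was -0.38, against 0.035 for the 34 longer ones, of which 13 were lower. Neither count was taken over all genes tested, so whether other short transcripts do the same is not shown by it. Sec61b (564 bases) stood at -0.76, Srp14 (798 bases) at -0.62 and Ssr4 (765 bases) at -0.61. At the other end Sec24d (3903 bases) stood at 0.53, Lman1 (4676 bases) at 0.48 and Sec62 (3967 bases) at 0.47. The fold change between genotypes followed length less closely (rho 0.264 across the 47, beside 0.137 across the 18306 genes). Its median was -0.22 both in the short and in the longer genes.

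**Figure D4:**
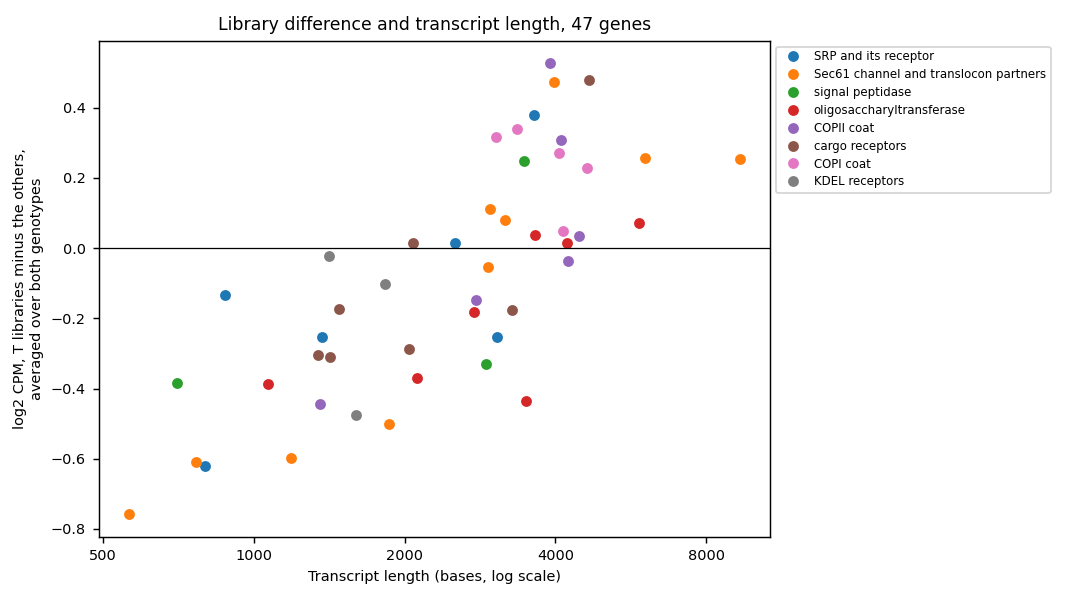
Difference in log2 CPM between libraries with a T in their names and the others, averaged over both genotypes, against transcript length (log scale) for the 47 genes, coloured by role. Short transcripts such as Sec61b (-0.76) lie below 0 and long ones such as Sec24d (0.53) above it.

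Within both kinds of library most of the genes were lower in GRdim, to different degrees. For 30 of the 47 this held in both kinds, a count not taken over all genes. Among the 4 libraries with no T, 44 of 47 genes had a lower mean log2 CPM in GRdim, again not counted over all genes. The median difference was -0.27, beside -0.0019 over all genes tested. Both GRdim libraries lay below both GRwt libraries for 34 of 47 (72.3%), beside 18.7% of all genes tested. In that set 9 of 47 were lower at an edgeR unadjusted p under 0.05, beside 2.9% of the genes tested, and 0 passed after adjustment. GRdim replicate 1 lay below GRwt replicate 3, the T pair, for 32 of 47 genes (68.1%), beside 50.8% of all genes tested, with a median difference of -0.12 and no replicate check. Both of these orders together held for 21 of 47 (44.7%), beside 10.2% of all genes tested. With the T as a covariate in all 6 libraries, 7 of 47 were lower at an unadjusted p under 0.05, beside 2.1% of all genes, and the median was -0.22. With limma-voom, 4 of 47 were lower at an unadjusted p under 0.05, beside 2.19% of all genes. In edgeR the count at an unadjusted p under 0.05 was 5 without GRdim replicate 1, beside 2.58% of all genes, and 5 without GRwt replicate 3, beside 1.90% of all genes. It was 0 of 47 without any 1 of the other 4 libraries, beside 0.617% to 1.01% of all genes, and 0 of 47 with GRdim replicates 1 and 3 summed, beside 1.07%.

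Markers of the cell types that the tumors could hold moved as well, and their part in these differences was not tested. Colonic epithelial markers such as Epcam, all of them present, had 12 of 12 log2 fold changes below 0 (median -0.20). They summed to 13352 to 16021 CPM in GRdim and 13398 to 20779 CPM in GRwt libraries, overlapping. They were lowest in the libraries with a T. Their median deviations were -0.32, -0.13 and -0.12 in GRdim replicates 1, 2 and 3 and -0.022, 0.42 and -0.35 in GRwt replicates 1, 2 and 3. Of 15 goblet cell markers 14 lay below 0 (median -0.38), summing to 37999.6, 17875 and 5278 CPM in GRdim replicates 1, 2 and 3 and 22998, 32493 and 24710.3 CPM in GRwt replicates 1, 2 and 3. GRdim replicate 3 stood far below the others there. For plasma cells 6 of 15 markers lay below 0 (median 0.038) and summed to 3762 to 5488 CPM in GRdim and 4111 to 6239 CPM in GRwt libraries. Smooth muscle markers were higher in 10 of 10 cases (median 1.20), summing to 2668, 1244 and 6512 CPM in GRdim replicates 1, 2 and 3 and 1467, 1291 and 1491 CPM in GRwt replicates 1, 2 and 3. GRdim replicates 1 and 3 stood above every GRwt library and GRdim replicate 2 below them.

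The sums of the other marker lists all overlapped between genotypes. Fibroblast markers summed to 1045 to 2576 CPM in GRdim and 1641 to 2289 CPM in GRwt libraries, enteroendocrine markers to 129 to 294 CPM in GRdim and 203 to 352 CPM in GRwt libraries, and macrophage and monocyte markers to 464 to 684 CPM in GRdim and 546 to 842 CPM in GRwt libraries. B and T cell markers were higher in 9 of 10 cases, at 48.6 to 129 CPM in GRdim and 26.7 to 94.2 CPM in GRwt libraries. Of 7 squamous markers tested 6 were higher (median 1.20), the sum being highest in GRdim replicate 3 (86.8 to 571 CPM in GRdim and 98.1 to 210.1 CPM in GRwt libraries). All 9 adipocyte markers tested were higher (median 1.75), with 190.1 to 342 CPM in GRdim and 121 to 219.9 CPM in GRwt libraries, and Adipoq, Plin1, Lep and Cfd, typical of fat cells, were at 0 in at least 1 library. Trp63, Sprr3 and Ivl of the squamous list were likewise at 0 in at least 1 library, and no other listed marker was.

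**Figure D5:**
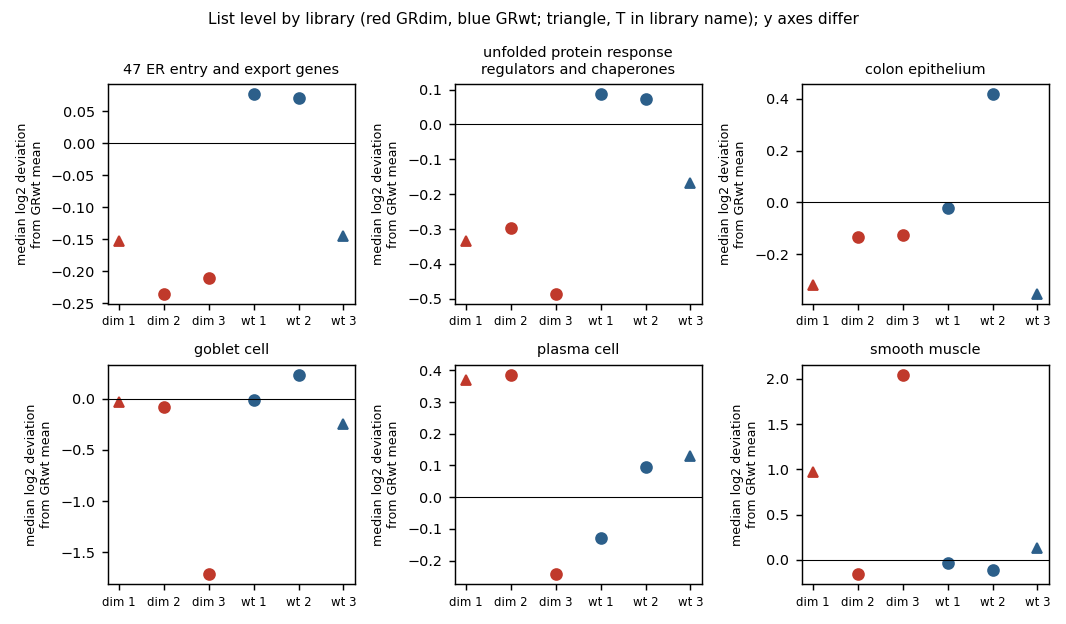
Median log2 deviation from the GRwt mean, by library, of the 47 genes, of chaperones and regulators of the unfolded protein response, and of 4 marker lists (GRdim left in red, GRwt right in blue; triangles, T in the library name; y axes differ). The 47 genes are low in the 3 GRdim libraries and in GRwt replicate 3, the goblet markers in GRdim replicate 3, and the muscle markers are high in GRdim replicates 1 and 3.

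Genes listed for the same route outside the 47 were mostly lower, and none passed in edgeR after adjustment. Over 98 such genes, 77 were lower and 21 higher, with a median log2 fold change of -0.16 beside 0.0040 for all genes tested. Of 28 other glycosylation genes 26 lay below 0 (median -0.21). Magt1, an oxidoreductase subunit of the Stt3b form, had 105, 65.6 and 64.5 CPM in GRdim and 106, 102 and 104 CPM in GRwt libraries, overlapping through GRdim replicate 1 (-0.41 ± 0.22). Alg8, which adds glucose to the precursor glycan, had 14.02, 18.1 and 18.7 CPM in GRdim and 26.5, 23.3 and 17.7 CPM in GRwt libraries, overlapping through GRwt replicate 3 (-0.41 ± 0.22).

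Of 21 genes listed for other targeting steps 15 lay below 0, at a median of -0.13, or -0.072 without GRwt replicate 1. That list holds Snd1, which in the mouse encodes an RNA-binding Tudor nuclease and only shares its name with a yeast targeting factor, and without it 14 of 20 lay below 0 (median -0.13). Snd1 had 145, 109 and 145 CPM in GRdim and 165, 185 and 159 CPM in GRwt libraries, without overlap (-0.35 ± 0.18). Srp54c, an SRP GTPase gene with near-identical copies whose reads may be divided between them, had -0.41 ± 0.27. Other ER exit genes were lower in 23 of 31 (median -0.091). Bet1, a fusion protein of the ER-to-Golgi step, had -0.37 ± 0.23, while Sec31b, the scarce relative of Sec31a, had 0.486, 1.39 and 1.36 CPM in GRdim and 0.297, 0.508 and 0.663 CPM in GRwt libraries (1.14 ± 0.58). Other COPI and retrieval genes were lower in 13 of 18 (median -0.071), and that median ran from -0.040 without GRwt replicate 2 and -0.045 without GRdim replicate 1 to -0.13 without GRdim replicate 2 and -0.14 without GRwt replicate 3, with -0.19 among the 4 libraries with no T. The coat gene Copz2 had -0.40 ± 0.28, or -0.18 without GRwt replicate 1, -0.27 without GRdim replicate 2 and -0.61 without GRdim replicate 1. The small GTPase Arf4 had -0.23 ± 0.19.

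ER chaperones and unfolded protein response regulators had a more negative median than the 47 genes together, -0.34, with 21 of 25 below 0, and that median was -0.53 among the 4 libraries with no T. Hspa5, the main ER chaperone, had 693, 759 and 609 CPM in GRdim and 1176, 1109.9 and 959 CPM in GRwt libraries, and Pdia6, a disulfide isomerase, 273, 316 and 242 CPM in GRdim and 450.04, 448 and 383 CPM in GRwt libraries, both without overlap (-0.65 ± 0.21 and -0.62 ± 0.19). Of the 25, 11 were lower at an edgeR unadjusted p under 0.05, beside 1.09% of all genes tested, and 0 after adjustment. That count became 8, 7 and 1 when GRdim replicate 1, 2 or 3 was left out, beside 2.58%, 1.01% and 0.617% of all genes. When GRwt replicate 1, 2 or 3 was left out it became 3, 2 and 11, beside 0.628%, 0.762% and 1.90%. It was 5 with GRdim replicates 1 and 3 summed, beside 1.07%.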

How the data were processed

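The authors deposited a table of raw read counts per gene with gene positions; its values were whole numbers and its totals differed between libraries. Per the submitters' processing notes, the tools were bcl2fastq 2.20.0.422, Trim Galore, FastQC, MultiQC, STAR 2.7.8a, featureCounts of Subread 1.5.0 and DESeq2 1.40.2, on build GRCm39; the annotation release and strand setting are not given in the sources used here. Columns were matched to samples by library name.

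Counts were tested with edgeR 4.0.16 (quasi-likelihood F test, R 4.3.3, TMM scaling, default low-count filter, robust dispersion), which kept 18756 genes, with Benjamini-Hochberg adjustment over all of them and a threshold of 0.05. Log2 CPM used a prior count of 2. The standard error is the log2 fold change divided by the square root of F. Alternatives were DESeq2 1.42.0, limma-voom (limma 3.58.1) with sample weights, other size factors, no filter, the T in library names, the replicate block, GRdim replicates 1 and 3 summed, and each library left out. The edgeR procedure was tested on simulated data. Named genes were those of smallest p and highest CPM per role (the next by p where these were 1 gene, as for Rpn1 and then Ostc), the related pairs, and the 2 of smallest p per further list; other members are given by log2 fold change, and genes named for non-overlap, the T difference or level per length were chosen after their values were seen. The genes and lists were chosen with earlier results of these data known.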

Additional observations from a re-analysis of the deposited data

How the results depend on the processing

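None of the 47 genes passed after adjustment under any of the 14 alternatives. Over all genes DESeq2 called 33, against 0 in edgeR, and each other alternative called 0. The median of the 47 ran from -0.29 to -0.19 with 1 library left out, was -0.27 in the 4 libraries with no T, and was -0.12 in the T pair alone, a setting chosen after seeing the data. Same-numbered libraries did not deviate together (correlations of deviations -0.39, 0.030 and -0.43 for replicates 1, 2 and 3). Deviations from a mean of 3 libraries depend on each other, and GRdim replicate 1 went with GRwt replicate 3 (0.45). This check therefore cannot exclude a pairing by number. With the replicate block the median was -0.23 and 0 genes were called. At an unadjusted p under 0.05 there were 0 of the 47 and 2 of the 25 chaperones and regulators, beside 0.80% of all genes called lower. Of 32 named genes, 21 moved by over 1.5 times when 1 library was left out and 5 turned sign somewhere. Sec23a (0.013) had -0.087 with limma-voom, -0.0083 with no filter, -1.6e-05 with the T as covariate, -0.10 with no T libraries, -0.060 with GRdim replicates 1 and 3 summed and -0.16 to 0.13 with 1 library left out. In that last setting Kdelr1 ran from -0.29 to 0.012, Stt3b from -0.29 to 0.060, Srp72 from -0.23 to 0.028, Sec24c from -0.025 to 0.15, and the ratio of Sec23a to Sec23b from -0.0022 to 0.40; the cause was not tested. The median of the KDEL receptors (-0.43) was -0.75 among the libraries with no T. With at least 365 counts per gene and library, counting error is small, and 3 libraries per genotype limit the precision.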
